A study of Mus musculus with 8 samples.

Results

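Olfr464, Olfr1350 and Olfr231 are 3 odorant receptor genes whose transcripts were measured here in the vomeronasal organ of mice. They were chosen by name, as 3 of 738 entries with an Olfr symbol and of 27532 genes listed in all, because earlier results of these data had shown large differences between genotypes. The comparison of their levels between genotypes, their share of all Olfr transcripts and their place among vomeronasal receptor genes are therefore given as a description with no test. The study asked how receptor and other gene expression in this organ differs when Tex15, a gene of the germline pathway that directs DNA methylation to transposons, is lost. Bulk polyA RNA was sequenced from 8 adult mice. The Tex15Het group held 4 heterozygous animals (replicate 1 male, replicates 2, 3 and 4 female) aged 11.4 to 14.6 weeks, and the Tex15KO group held 4 knockout animals (replicate 1 female, replicates 2, 3 and 4 male) aged 11.9 to 12.1 weeks. The allele and the strain are not given in the sources used here, and no wild-type animal was analysed here. The titles of heterozygous replicates 1 and 2 carry an animal number and a last number, both unexplained, that stand apart from those of the other 6 animals, and no knockout carries such numbers.

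Odorant receptors are G protein coupled receptors that sensory neurons of the main olfactory epithelium use to detect volatile compounds. Each such neuron transcribes a single allele of a single receptor gene, and the remaining genes of the family stay silent in it under heterochromatin. Neurons of the vomeronasal organ instead use receptors of the V1R and V2R families, which respond to pheromones and other cues between animals, and only few odorant receptors are known from this organ.

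The 3 genes lie on 3 chromosomes (GRCm38). Olfr464 (OTTMUSG00000001433) spans 87913268 to 87920967 on the minus strand of chromosome 11. Olfr1350 (OTTMUSG00000060118) spans 6564841 to 6571401 on the plus strand of chromosome 7. Olfr231 (OTTMUSG00000050214) spans 174113211 to 174121162 on the minus strand of chromosome 1. Each has its coding sequence in 1 exon, of 939, 924 and 921 bases without the stop codon, and in GENCODE M21 the gene begins 6.06, 5.15 and 3.15 kb before the start codon, with a non-coding exon and an intron between in the longer transcripts. The coding sequences are distant relatives. Olfr464 and Olfr1350 were 58.1% identical, Olfr464 and Olfr231 56.5%, and Olfr1350 and Olfr231 56.8%, close to the medians of 56.9%, 56.3% and 55.8% that Olfr464, Olfr1350 and Olfr231 have against the other 1138 intact Olfr coding sequences. The stretch of 60 coding bases in which the 3 genes are most alike is shown to make the distance visible, with capitals at the 36 bases that all 3 share. It begins at coding base 497 of Olfr464, 491 of Olfr1350 and 476 of Olfr231, counted from the start codon of each gene.
Olfr464: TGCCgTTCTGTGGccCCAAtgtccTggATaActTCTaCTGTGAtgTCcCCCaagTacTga
Olfr1350: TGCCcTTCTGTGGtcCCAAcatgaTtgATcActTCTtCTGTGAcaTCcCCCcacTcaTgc
Olfr231: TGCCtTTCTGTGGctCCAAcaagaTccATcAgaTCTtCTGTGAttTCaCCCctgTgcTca

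Reads of near-identical receptor genes can be assigned to the wrong copy, so each gene was compared with its closest relative. Olfr463, the nearest receptor gene to Olfr464 on chromosome 11, was the closest of all, with 84.6% of coding bases identical and a longest shared run of 74 bases. Olfr1350 was closest to Olfr312 (65.3%, longest shared run 23 bases) and Olfr231 to Olfr424 (69.2%, longest shared run 17 bases). The first 60 coding bases of Olfr464 and Olfr463 are shown because this is the pair most open to mixed assignment, with capitals at the 13 bases in which they differ.
Olfr464: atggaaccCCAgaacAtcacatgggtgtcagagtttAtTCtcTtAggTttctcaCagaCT
Olfr463: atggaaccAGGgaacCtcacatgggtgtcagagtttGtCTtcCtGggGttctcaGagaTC
Over whole transcripts, all windows of 100 bases of the 3 genes (2504 in Olfr464, 1714 in Olfr1350 and 5105 in Olfr231) were absent from the transcripts of every other gene in GENCODE M21, so a read of that length from 1 of them matches no other annotated transcript exactly.

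Levels are in TPM, a measure of transcript abundance whose values sum to 1000000 in each library and which allows for gene length. All 3 receptors were close to undetected in heterozygous libraries and abundant in knockout libraries. Olfr464 stood at 0.132, 0.721, 0.0470 and 0.299 TPM in heterozygous replicates 1 to 4, from 5, 24, 1 and 8 reads. It stood at 89.4, 38.7, 41.5 and 23.4 TPM in knockout replicates 1 to 4, from 2007, 1075, 1022 and 577 reads. Knockout replicate 1 was the highest and replicate 4 the lowest, and the lowest knockout library was 32.4-fold above the highest heterozygous one. Olfr1350 stood at 0.0691, 0.236, 0 and 0.147 TPM in heterozygous replicates 1 to 4, from 2, 6, 0 and 3 reads. The count of 0 in replicate 3 allows up to 0.185 TPM, the level of 3 reads there. In knockout replicates 1 to 4 Olfr1350 stood at 21.2, 32.2, 31.3 and 16.8 TPM, from 363, 682, 588 and 317 reads. Replicates 2 and 3 were the highest here, and the groups were 71.2-fold apart at their nearest libraries. Olfr231 stood at 0.0117, 0.0669, 0.0837 and 0.0167 TPM in heterozygous replicates 1 to 4, from 1, 5, 4 and 1 reads. In knockout replicates 1 to 4 it stood at 12.0, 6.34, 5.86 and 4.74 TPM, from 607, 395, 324 and 263 reads. As for Olfr464, knockout replicate 1 was the highest library, and the nearest libraries of the groups were 56.6-fold apart.

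**Figure D1:**
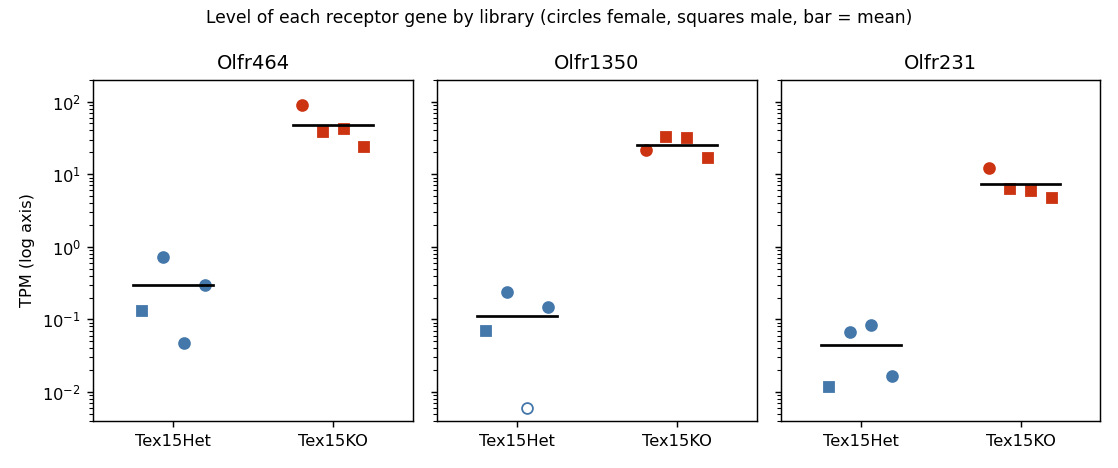
Level of Olfr464, Olfr1350 and Olfr231 in TPM (log axis) in each Tex15Het (blue) and Tex15KO (red) library, with females as circles, males as squares and the group mean as a bar. The open circle at the foot of the Olfr1350 panel is heterozygous replicate 3, listed at 0, and each gene's knockout libraries lie at least 32.4-fold above its heterozygous libraries.

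Over 4 knockout libraries Olfr464 averaged 48.3 ± 28.6 TPM (SD), against 0.300 ± 0.300 TPM over 4 heterozygous ones, a ratio of 161. Olfr1350 averaged 25.4 ± 7.58 against 0.113 ± 0.102 TPM, a ratio of 224, and Olfr231 7.25 ± 3.27 against 0.0448 ± 0.0360 TPM, a ratio of 162. The heterozygous side of these ratios rests on few reads, 38 for Olfr464 (exact Poisson 95% interval 26.9 to 52.2), 11 for Olfr1350 and 11 for Olfr231 (5.49 to 19.7 each), so the ratios do not order the 3 genes. The intervals cover counting error only. Groups did not overlap for any of the 3 genes. Of 20305 tested genes, 0.473% had all knockout libraries above all heterozygous libraries and 0.212% were called higher (limma, adjusted p under 0.05). On the log2(TPM + 0.5) scale of the fit the differences were 6.08 (SE 0.43), 5.13 (SE 0.41) and 3.84 (SE 0.40) relative to the median tested gene, which itself was 0.19 higher in knockout libraries. This scale compresses the difference of a gene that is near 0 in 1 group. Between females alone, with 3 heterozygous and 1 knockout library, the means of Olfr464 were 0.356 and 89.4 TPM, of Olfr1350 0.128 and 21.2 TPM and of Olfr231 0.0558 and 12.0 TPM. Between males, with 1 heterozygous and 3 knockout libraries, they were 0.132 and 34.5 TPM, 0.0691 and 26.8 TPM, and 0.0117 and 5.65 TPM. The separation was thus present within each sex and, from the values of heterozygous replicates 3 and 4, among the other 6 animals. In bulk tissue, more neurons that transcribe a receptor and more transcripts per such neuron cannot be told apart.

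The 3 genes held a large share of the odorant receptor transcripts of the knockout libraries. Together they made up 67.8%, 52.9%, 51.0% and 37.7% of all Olfr TPM in knockout replicates 1 to 4, a mean of 52.3% ± 12.3 (SD, n = 4), against 0.275% ± 0.0602 in heterozygous libraries. Olfr464 alone held 30.6% ± 13.0 in knockout libraries, from 19.6% in replicate 4 to 49.4% in replicate 1. Olfr1350 held 17.0% ± 4.91 and Olfr231 4.69% ± 1.33. In heterozygous libraries Olfr464 held 0.166% ± 0.0640, Olfr1350 0.0668% ± 0.0491 and Olfr231 0.0431% ± 0.0552. Olfr464 ranked first among the 738 Olfr entries in each of the 4 knockout libraries. Olfr1350 ranked 2nd in replicates 1, 2 and 3 and 3rd in replicate 4, and Olfr231 ranked 3rd, 7th, 7th and 6th. By mean heterozygous level they ranked 132nd, 433rd and 686th. A share of recovered Olfr reads, an alternative added after the data had been seen that does not allow for length, was 25.7% for Olfr464, 10.7% for the short Olfr1350 and 8.79% for the long Olfr231. Together the 3 genes then held 64.5%, 43.0%, 43.1% and 30.5% in knockout replicates 1 to 4, a mean of 45.2% ± 14.1 (SD, n = 4).

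**Figure D2:**
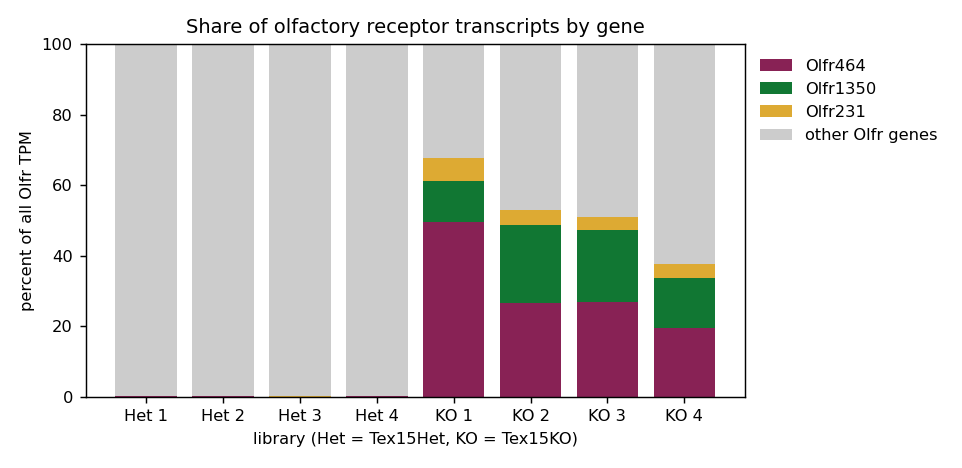
Percent of all Olfr TPM held by Olfr464, Olfr1350, Olfr231 and the other Olfr genes in each library, stacked to 100. The 3 genes fill 37.7% to 67.8% of the bar in the 4 knockout libraries and at most 0.325% in the 4 heterozygous libraries.

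The 3 genes were then placed among the 395 listed V1R and V2R genes, the families that vomeronasal neurons normally use. Entries named as pseudogenes (ps) are counted among them here and below. By mean knockout level Olfr464 came 7th, with 2 V1R and 4 V2R entries above it, the latter including Vmn2r-ps159. Its neighbours in that order were Vmn2r-ps159 at 62.4 ± 10.3 TPM and Vmn2r88 at 42.5 ± 8.83 TPM (SD, n = 4), and the range of Olfr464 covered those of both. It came 1st in knockout replicate 1 and 9th, 12th and 21st in replicates 2, 3 and 4. Olfr1350 came 19th by mean and 12th, 13th, 15th and 27th in replicates 1 to 4. It lay between Vmn2r6 at 26.7 ± 4.44 TPM and Vmn1r34 at 22.2 ± 7.07 TPM, with overlapping ranges. Olfr231 came 46th by mean and 24th, 51st, 52nd and 76th in replicates 1 to 4. It lay between Vmn2r-ps42 at 7.28 ± 2.53 TPM and Vmn2r107 at 6.54 ± 1.39 TPM, again with overlapping ranges. In heterozygous libraries the means of the 3 genes came 335th, 380th and 393rd. Summed, the 3 receptors equalled 11.8%, 4.87%, 4.72% and 2.48% of the summed V1R and V2R TPM in knockout replicates 1 to 4 and at most 0.106% in heterozygous libraries. The V1R and V2R sum itself was 1043, 1585, 1667 and 1814 TPM in knockout replicates 1 to 4 and 963 to 2798 TPM in heterozygous libraries. Reads of V1R and V2R genes with near-identical copies may be split among them, which touches these ranks but not the levels of the 3 receptors.

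**Figure D3:**
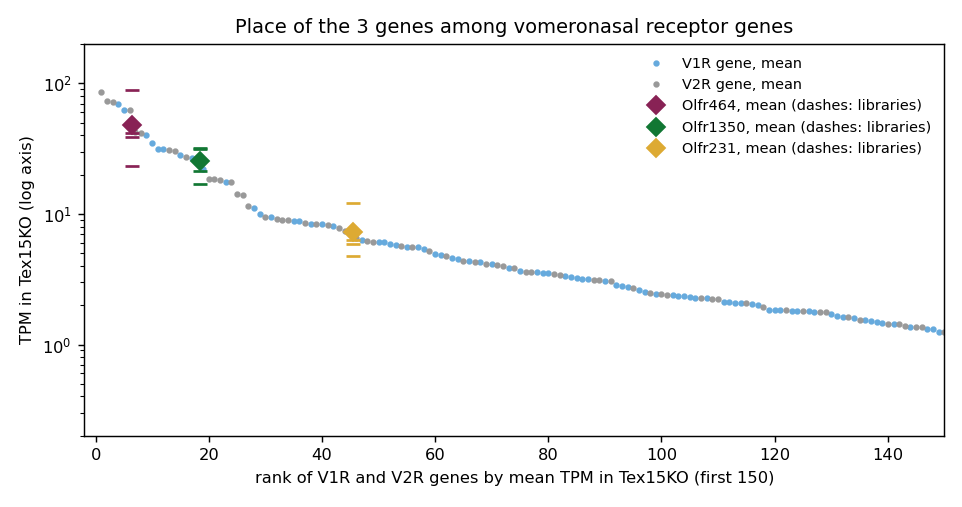
Mean TPM in Tex15KO (log axis) of the first 150 V1R (blue) and V2R (grey) genes against their rank, with Olfr464, Olfr1350 and Olfr231 as diamonds at their places, 7th, 19th and 46th, and their 4 knockout libraries as dashes. The range of each of the 3 genes spans many ranks of the vomeronasal receptor genes, among which entries named as pseudogenes are counted.

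The 3 receptors did not keep 1 ratio among the knockout libraries. Olfr464 exceeded Olfr1350 4.22-fold in knockout replicate 1, the only female, and 1.20-fold, 1.33-fold and 1.39-fold in the males. Olfr464 exceeded Olfr231 7.42-fold, 6.11-fold, 7.08-fold and 4.93-fold in replicates 1 to 4, a narrower range. Olfr1350 exceeded Olfr231 1.76-fold in replicate 1 and 5.08-fold, 5.34-fold and 3.55-fold in the others. The order Olfr464, Olfr1350, Olfr231 held within each of the 4 knockout libraries, although the ranges of Olfr464 and Olfr1350 over libraries overlapped. Olfr231 lay below both without overlap. Coefficients of variation in knockout libraries were 59.3% for Olfr464, 29.9% for Olfr1350 and 45.1% for Olfr231. The 59 V1R and V2R genes with a mean of 5 TPM or more there had a median of 25.6% and a range of 7.93% to 45.0%.

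The same fit has a term for sex, for which 10 of all 20305 genes (0.0492%) were called. The male minus female coefficient was −0.88 for Olfr464 (SE 0.43), 0.07 for Olfr1350 (SE 0.41) and −0.58 for Olfr231 (SE 0.40). These are given as a description: the 3 genes passed the filter only through the knockout group, their heterozygous levels are near 0, and the contrast rests on 1 female against 3 male knockout libraries. Without knockout replicate 1, the only female knockout, the coefficients were −0.36, −0.12 and −0.12. Without heterozygous replicate 1, the only male of its group, they were −1.40, 0.27 and −1.04, and with limma-voom on recovered reads −1.46, 0.13 and −1.24. A single female knockout library cannot be told apart from a difference between females and males.

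**Figure D4:**
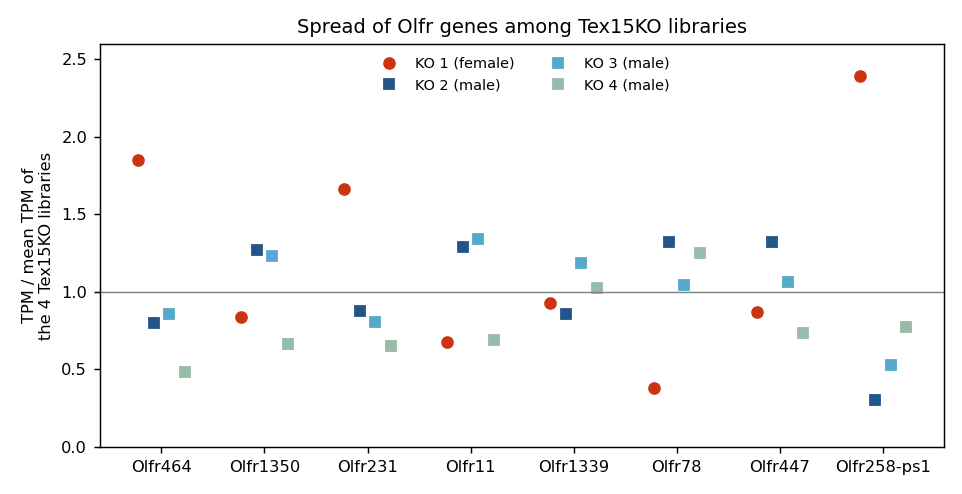
TPM of each knockout library divided by the mean of the 4 knockout libraries, for the 3 receptors and the 5 other Olfr genes called higher, with the female as circles and the males as squares. Olfr464, Olfr231 and Olfr258-ps1 were highest in the female, and Olfr78 and Olfr11 were lowest there, the latter at 4.21 TPM against 4.28 TPM in the next library.

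The tested genes most like each receptor over the 8 libraries were found by Pearson's r of log2(TPM + 0.5). The libraries fall into 2 separate groups for these genes, so r over all 8 mostly measures the gap between genotypes, and it is a description. Olfr464 was most like Olfr231 (r = 0.994), Olfr1350 (0.983), Olfr1339 (0.979), Olfr447 (0.979) and Vmn2r27 (0.970). Olfr1350 was most like Olfr447 (0.998), Olfr1339 (0.991), Vmn2r27 (0.990), Olfr11 (0.988) and Olfr464 (0.983). Olfr231 was most like Olfr464 (0.994), Vmn2r27 (0.980), Olfr1350 (0.977), Olfr447 (0.975) and Olfr1339 (0.974). Apart from the V2R gene Vmn2r27, with 8.96 ± 0.957 TPM in knockout against 0.172 ± 0.115 TPM in heterozygous libraries (SD, n = 4), all of these genes are odorant receptor genes.

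Among the other 735 Olfr entries, 26 were abundant enough to be tested, 5 of which were called higher and 1 lower in knockout libraries (limma, adjusted p under 0.05), against 0.212% and 0.374% of all tested genes. The filter on mean TPM bears on these counts, since Olfr11, Olfr1339, Olfr447 and Olfr258-ps1 passed it only through the knockout libraries and Olfr124 only through the heterozygous ones, so nothing is read from the counts. The filter takes the mean over all 8 libraries, and with no filter limma gave these 5 genes adjusted p values of 0.0100, 0.00417, 0.00389, 0.0119 and 0.219, so that the call of Olfr124 was lost. The median of the 26 was −0.50 on the log2 scale relative to the median gene. The log2 differences given below for single genes are those fitted, which the adjusted p tests, and relative to the median gene each is 0.19 lower. Olfr11 on chromosome 13 rose to 4.21, 7.98, 8.30 and 4.28 TPM in knockout replicates 1 to 4, from 0.185 ± 0.252 TPM in heterozygous libraries (SD, n = 4), with a log2 difference of 3.25 (SE 0.44, limma adjusted p = 0.000419). Olfr1339 on chromosome 4 rose to 7.10, 6.56, 9.08 and 7.85 TPM from 0.427 ± 0.131 TPM, by 3.18 (SE 0.39, limma adjusted p = 0.000162). Olfr447 on chromosome 6 rose to 3.37, 5.14, 4.14 and 2.86 TPM, by 3.01 (SE 0.39, limma adjusted p = 0.000343), while heterozygous replicate 2 had 5 reads of it and its 3 companions 0. These 3 genes resembled Olfr1350 in having no excess in knockout replicate 1. Olfr78, a receptor for short-chain fatty acids, lies on chromosome 7 and stood at 4.85, 17.0, 13.4 and 16.1 TPM against 0.557 ± 0.214 TPM, a log2 difference of 3.12 (SE 0.43, limma adjusted p = 0.000428). With heterozygous replicate 1 left out the fitted difference was 2.39 (limma adjusted p = 0.0922). Its lowest knockout library was replicate 1, where Olfr464 and Olfr231 were highest. Olfr124 on chromosome 17 was the gene called lower, by −3.28 (SE 0.70, limma adjusted p = 0.0274). Its level was 22.5, 0.283, 0.257 and 2.99 TPM in heterozygous replicates 1 to 4 and at most 0.0885 TPM in knockout libraries. Without heterozygous replicate 1 the fitted difference was −1.11 and the limma adjusted p was 1.

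The knockout libraries held few odorant receptor genes besides these. Other Olfr genes summed to 65.2, 392, 66.4 and 144.5 TPM in heterozygous replicates 1 to 4 and to 58.2, 68.8, 75.7 and 74.1 TPM in knockout replicates 1 to 4. Heterozygous replicate 2 stood apart, and without it the log2 difference went from −0.86 to −0.31. The difference was not larger than the spread (two-sided exact permutation test, p = 0.314, adjusted over 4 tests 0.419). At 0.5 TPM or more, 15, 263, 17 and 75 other Olfr genes were found in heterozygous replicates 1 to 4 and 20, 12, 16 and 18 in knockout replicates 1 to 4 (exact permutation p = 0.286, adjusted 0.419). At 0.1 TPM or more there were 65, 655, 125 and 252 in heterozygous and 60, 43, 52 and 53 in knockout replicates 1 to 4, without overlap (exact permutation p = 0.0286, adjusted 0.114), and at 1 TPM or more 6, 86, 5 and 25 against 13, 8, 9 and 9 (exact permutation p = 0.429, adjusted 0.571). For a gene with 2 kb of exon, 3 reads equal 0.0916 to 0.163 TPM depending on the library, so counts at 0.1 TPM turn on few reads. The effective number of other Olfr genes, the number of equally abundant genes that would give the same evenness, was 23.1, 456.6, 75.5 and 191.4 in heterozygous and 30.1, 17.3, 18.9 and 20.1 in knockout replicates 1 to 4 (exact permutation p = 0.0571, adjusted 0.229). The smallest p that 4 against 4 libraries can give is 0.0286. Heterozygous replicate 2, with 263 other Olfr genes at 0.5 TPM or more, also had the highest sum of the 3 receptors in its group, 1.02 TPM against 0.131 to 0.463 TPM. There Olfr464, Olfr1350 and Olfr231 ranked 166th, 482nd and 672nd of the 738 entries.

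Genes near the 3 receptors were examined within 500 kb on either side, a distance that contains other Olfr genes in each case and no V1R or V2R gene. Around Olfr464, 0 of 18 tested genes were called, where 0.586% of all tested genes were. Around Olfr1350, 0 of 13 were called, and around Olfr231, 1 of 13, Olfr258-ps1, which was higher. The pseudogene Olfr258-ps1 lies 19.2 kb from Olfr231 (chromosome 1, 174140408 to 174143254, plus strand). It stood at 6.66, 0.846, 1.47 and 2.16 TPM in knockout replicates 1 to 4, from 70, 11, 17 and 25 reads, and had 1 read in heterozygous replicate 4 and 0 in the others. Its fitted log2 difference was 2.86 (SE 0.45, limma adjusted p = 0.00152). Like Olfr447 it passed the filter only through knockout libraries, and with no filter the limma adjusted p was 0.0119. The fitted difference was 1.94 without knockout replicate 1 (limma adjusted p = 0.237) and 2.31 without heterozygous replicates 1 and 2 and the sex term (limma adjusted p = 0.0622), so the call was lost in both. Median differences of the tested neighbours relative to the median gene were −0.0028 around Olfr464, 0.02 around Olfr1350 and 0.07 around Olfr231.

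Other receptor genes near the 3 had at most 44 reads in any library, apart from Olfr258-ps1. Olfr463, 15.9 kb from Olfr464 and its closest relative, was listed at 0, 0.328, 0 and 0.0817 TPM in heterozygous replicates 1 to 4. It reached 1.22, 0.354, 0.753 and 0.309 TPM in knockout replicates 1 to 4, from 25, 9, 17 and 7 reads in the latter. It was below the abundance filter and was not tested. Olfr462, the next gene of that cluster, had 16 reads in heterozygous replicate 2 and 0 in all other libraries. Olfr1349, 41.9 kb from Olfr1350, had 0.292 ± 0.110 TPM in knockout against 0.126 ± 0.102 TPM in heterozygous libraries (SD, n = 4). Of its neighbours, Olfr1348 had 2, 6, 6 and 41 reads and Olfr1347 0, 6, 2 and 29 reads in heterozygous replicates 1 to 4, Olfr5 and Olfr1346 had at most 9, and these 4 genes had 0 in every knockout library, where Olfr1344 had 0, 5, 5 and 2 reads against 0 in every heterozygous one. Olfr424, 10.4 kb from Olfr231 and its closest relative, had 10 reads in heterozygous replicate 2, 3 reads in knockout replicate 1 and 0 elsewhere. Olfr429, 21.9 kb from Olfr231 on the other side, had 21 reads in heterozygous replicate 2 and 0 elsewhere. Olfr430 had 18, 8, 11 and 0 reads in knockout replicates 1 to 4 against 0, 3, 1 and 0 in heterozygous ones. Olfr420 had 12, 0, 5 and 4 against 0, 1, 0 and 2 reads. The remaining neighbours, Olfr433, Olfr419, Olfr417, Olfr414 and Olfr220, had most of their reads in heterozygous libraries. Of the relatives of Olfr1350 on chromosome 11, Olfr312 had 11 reads and Olfr311 12 reads in heterozygous replicate 2, and both had 0 in the other 7 libraries.

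The tissue was checked with marker genes. Gnai2 and Gnao1, the G protein subunits of apical and basal vomeronasal neurons, were present in all libraries at 113.6 to 302 TPM and 11.5 to 30.7 TPM. Omp, which marks mature olfactory and vomeronasal neurons, stood at 66.6 TPM in heterozygous replicate 1 and at 571 to 943 TPM in the other 7 libraries. Neurons of the main olfactory epithelium are the usual site of odorant receptor transcription, so their genes were followed with a list of 13. None was at 0 in any library and 0 of 13 were called, against 0.586% of all tested genes. The list summed to 620 to 1279 TPM in knockout against 649 to 1206 TPM in heterozygous libraries, and the log2 difference of 0.06 was within the spread (exact permutation test, p = 0.857, adjusted 0.857) and turned negative after median-ratio scaling, to −0.13. The largest part of that sum in every library was Gfy, which held 240.8 to 711 TPM of it in heterozygous and 332 to 879 TPM in knockout libraries, and Rtp1, a receptor trafficking gene that vomeronasal neurons also transcribe, held 85.4 to 179 TPM. Gfy and Rtp1 were highest in heterozygous replicate 3 and lowest in heterozygous replicate 2, as were Gnai2 and Gnao1. Of the 13 genes, 7 were highest in heterozygous replicate 3 and 6, among them Cnga2 and Gnal, in heterozygous replicate 2. The sum thus mixes genes of unlike order, and its test does not measure the amount of main olfactory neurons. Differences between genotypes also varied among the 13. Cnga2, Gnal and Stoml3 were −1.19 (SE 0.55), −1.06 (SE 0.56) and −1.31 (SE 0.46) on the log2 scale relative to the median gene, and the other 10 genes were −0.42 to −0.03. Cnga2, a subunit of their cyclic nucleotide gated channel, stood at 5.70, 27.3, 3.24 and 13.5 TPM in heterozygous replicates 1 to 4 and 6.27, 2.80, 2.58 and 1.27 TPM in knockout replicates 1 to 4. Gnal, the G protein subunit of the same cascade, stood at 3.99, 14.7, 1.48 and 5.57 TPM and at 3.72, 1.59, 1.66 and 0.815 TPM. Cngb1 and Ano2, channel genes of that cascade, did not share this order, with 6.64 and 17.0 TPM in heterozygous replicate 2 and 13.7 and 25.5 TPM in knockout replicate 4. Cyp2g1, an enzyme of olfactory supporting cells, stood at 77.7, 758, 20.1 and 84.7 TPM and at 44.3, 26.5, 28.9 and 37.4 TPM. The sums of the 3 receptors, 0.213, 1.02, 0.131 and 0.463 TPM in heterozygous replicates 1 to 4, had the same order as 3 of the 13 genes, Cnga2, Gnal and Stoml3. Their sums of 122.7, 77.2, 78.7 and 44.9 TPM in knockout replicates 1 to 4 had the order of 1 of the 13, Gnal. Stoml3 stood at 25.7, 13.7, 21.4 and 20.1 TPM there. Of the 13 genes, 7 were highest in knockout replicate 4, where the sum of the 3 receptors was lowest, and 8 were lowest in knockout replicate 1, where that sum was highest. Gnai2 and Gnao1 were likewise lowest in knockout replicate 1 (199 and 16.8 TPM) and highest in knockout replicate 4 (292 and 24.2 TPM). Cnga2 and Gnal had the reverse, highest in knockout replicate 1 and lowest in knockout replicate 4. With 4 libraries a group these orders are a description, and the part of main olfactory neurons in the level of the 3 receptors was not tested.

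**Figure D5:**
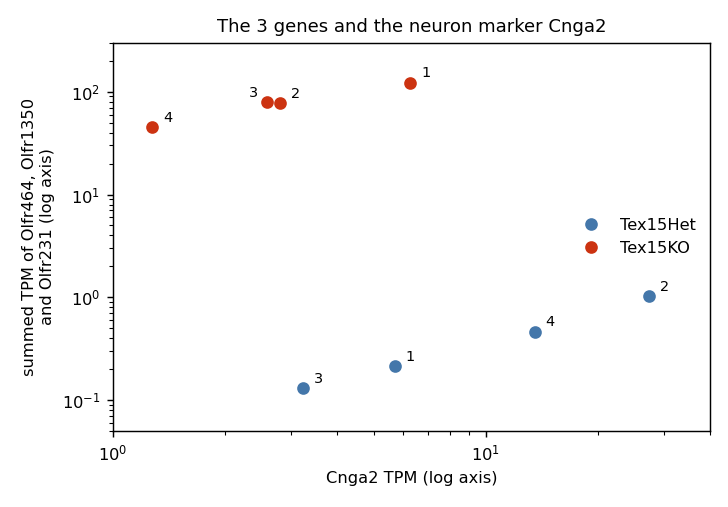
Summed TPM of Olfr464, Olfr1350 and Olfr231 against TPM of Cnga2 (both log axes) in each Tex15Het (blue) and Tex15KO (red) library, with the replicate number beside each point. Knockout libraries lie at 44.9 to 122.7 TPM and heterozygous libraries at 0.131 to 1.02 TPM, over ranges of Cnga2 that overlap.

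Genes known to act in odorant receptor choice and trafficking were given as lists. Of 21 genes of choice, among them the transcription factors Lhx2, Ebf1 and Emx2, the cofactor Ldb1, the demethylase Kdm1a and the heterochromatin genes Cbx5, Ehmt2 and Setdb1, 0 were called, and their median was −0.04 relative to the median gene. Lhx2 was at 14.7, 17.4, 20.1 and 25.3 TPM in knockout replicates 1 to 4, against 16.6, 9.67, 23.4 and 21.4 TPM in the heterozygous ones, and the ranges overlapped. Of 6 trafficking genes, which help odorant receptors reach the cell surface, 0 were called (median −0.10). The remaining lists also had 0 called genes: vomeronasal neurons (10 tested, median −0.12), olfactory supporting cells (5, −0.81), guanylyl cyclase D neurons (1, 0.12), respiratory ciliated cells (5, −0.0034), blood and immune cells (5, 0.12) and germ cells (4, −0.0062). In the fit 119 of 20305 genes were called in limma (0.586%) and 630 had an unadjusted p under 0.05. Tex15 itself was at 0.870, 1.23, 1.12 and 1.14 TPM in knockout replicates 1 to 4, against 2.72, 2.29, 2.81 and 2.27 TPM in the heterozygous ones, without overlap, and was not called (fitted log2 difference −1.03, SE 0.38, limma adjusted p = 0.794). Limma-voom on recovered reads did call it, with a log2 difference of −1.60 relative to the median gene (limma adjusted p = 0.0218 for the fitted −1.50). Which part of the transcript the allele removes is not given in the sources used here, so these reads do not check the labels.

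Sequence before the start was examined in RefSeq windows (GRCm38.p6), which were given for Olfr464 and Olfr1350 and not for Olfr231. RefSeq places the start of Olfr464 99 bases before its start codon and that of Olfr1350 at the start codon, 5.96 and 5.15 kb from the first exon in GENCODE, so the 250 bases searched lie next to the coding exon in each. In these windows the Ebf palindrome (TCCC, any 2 bases, GGGA), its core (CCC, any 2 bases, GGG, which lies within the palindrome) and the homeodomain words TAATTA and TAATTG were found 0 times on both strands, and TATAAA was found 1 time for Olfr464 and 0 times for Olfr1350. The shares of all 32851 windows that hold them were 0.779%, 11.8%, 4.84%, 7.17% and 12.4%, and of 948 Olfr windows 0.422%, 2.74%, 18.0%, 22.6% and 39.2%. CG dinucleotides, the sites of DNA methylation, numbered 3 for Olfr464 and 5 for Olfr1350, with a median of 1 over Olfr windows and 6 over all windows.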

How the data were processed

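RNA from the vomeronasal organ of 8 mice was sequenced, and the authors deposited a table of TPM per gene and library. Per the submitters' processing notes, Trim Galore 0.6.5, cutadapt 5.1, STAR 2.7.11b, deepTools 3.5.5 and the builds mm10 and GRCm38 were used. The counting tool and its annotation are not given in the sources used here. Of 27532 gene identifiers, 27468 matched GENCODE M21. Multiplying TPM by its exon length gave whole numbers (within 0.02, below 20 reads) for 97.5% to 98.2% of values, hence the reads quoted, 17888733 to 26419463 per library. TPM is no count, so genes with a mean of 0.5 TPM or more (20305) were fitted with limma 3.58.1 in R 4.3.3 on log2(TPM + 0.5) with genotype and sex, with Benjamini-Hochberg adjustment at 0.05. The fit was checked on simulated data. Limma-voom on the recovered reads, added after seeing the data, called 90 genes. Pearson r between libraries across genes was 0.918 to 0.967, and knockout replicate 1 listed 2988 genes at 0 against 1287 to 1808 elsewhere. Nothing in the labels says how animals were related, so p-values measure only the spread between these samples.

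The 3 genes, the lists and the tests were chosen with earlier results of these data known. Named genes were the 3 receptors, the 5 genes most like each, receptor genes nearest within 500 kb, the 2 closest Olfr genes, neighbours in rank, called Olfr genes and Tex15. The closest Olfr genes were taken by coding bases (Biopython 1.88), because no protein sequences were used here. Coding sequences were read from GENCODE M21 transcripts, and the windows before the start are those of RefSeq. Single sums were tested by exact permutation over 70 assignments. Alternatives were other pseudocounts, filters, scalings, covariates, thresholds, the fit without heterozygous replicates 1 and 2, and leaving out each library.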

Additional observations from a re-analysis of the deposited data

Results flagged for a closer look

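Among 20 groups of 4 libraries checked for a sample far from the others, 2 had one, and chance alone flags about 1 group in 20. Heterozygous replicate 3 had the lowest share of Olfr464 in all Olfr TPM, 0.0706%, from 1 read, where the other heterozygous libraries had 0.183% to 0.207%. The same library had the highest share of Olfr231, 0.126%, from 4 reads, where the others had 0.0115% to 0.0179%.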

How the results depend on the processing

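The 3 receptors kept knockout levels above heterozygous ones under all alternatives run, but the size of a log2 difference for genes near 0 depends on the pseudocount. For Olfr464, Olfr1350 and Olfr231 it was 7.34, 6.77 and 5.78 with 0.1 TPM added, and for Olfr1350 and Olfr231 4.30 and 2.99 with 1 TPM added. With a term that sets heterozygous replicates 1 and 2 apart it was 7.27, 5.77 and 4.57, with limma-voom on recovered reads 8.15, 7.60 and 7.76, and for Olfr1350 without these 2 libraries and the sex term 5.65. Leaving out 1 library gave 5.29 to 6.86 for Olfr464, 4.96 to 5.33 for Olfr1350 and 3.12 to 4.57 for Olfr231, whose lowest value was without knockout replicate 1 and highest without heterozygous replicate 1. By recovered reads Olfr1350 held 10.7% and Olfr231 8.79% of Olfr in knockout libraries, and the 3 genes together 45.2% in place of 52.3%. Leaving out 1 knockout library gave shares of 24.3% to 34.3%, 15.4% to 18.8% and 4.04% to 4.99%, and places of 7 to 13, 14 to 19 and 38 to 59 among V1R and V2R genes.

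The sex coefficient of Olfr1350 changed sign under median-ratio scaling, to −0.034, and was −0.12 to 0.27 with 1 library left out. The sum of main olfactory neuron genes changed sign under median-ratio scaling (−0.13) and without these 2 libraries (−0.32), and ranged from −0.10 to 0.25 with 1 library left out. All genes called for genotype numbered 72 with no filter, 184 without these 2 libraries and the sex term, and 132 without the sex term alone. They numbered 83 to 254 with 1 library left out, with 202, 254 and 190 without heterozygous replicate 2, heterozygous replicate 4 and knockout replicate 4. Median-ratio scaling gave 28 higher and 127 lower, against 43 and 76. Of other Olfr genes 4 to 7 were called. Olfr11, Olfr1339 and Olfr447 were called under each alternative, no filter included. Olfr124 was lost under 9, where its log2 difference relative to the median gene was −8.71 to −1.04. Nothing in the labels pairs animals by library number. Libraries of the same number were little correlated (correlations of deviations −0.06, 0.03, 0.10 and −0.00012), which cannot exclude a pairing. With library number as a replicate block 128 genes were called and the 3 differences were the same. The causes were not tested. With 0 to 24 reads per heterozygous library, the order of the receptors in that group is within the spread of the libraries.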
